A study of Homo sapiens with 20 samples.

Results

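The D-type cyclins CCND1, CCND2 and CCND3 and their partner kinases CDK4 and CDK6 were examined in H3K27ac peak lists from G401 cells, a human rhabdoid tumour line. Members were all peaks overlapping 1 of 5 hg19 windows: chr11:69250001-69520000 for CCND1, chr12:4150001-4450000 for CCND2, chr6:41850001-42070000 for CCND3, chr12:58120001-58170000 for CDK4 and chr7:92200001-92550000 for CDK6. Peaks of the 4 libraries that shared at least 1 bp were merged into regions, and 148 of 167933 regions lay in the windows. H3K27ac is acetylation of histone H3 at lysine 27, a mark of active promoters and enhancers.

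All libraries came from G401 cells that the labels give as SMARCB1(-/-), so both groups lacked the endogenous gene. Doxycycline induced GFP in the control group and SMARCB1, which belongs to the SWI/SNF family of chromatin remodellers, in the other, with 2 H3K27ac libraries each. The time of induction is not given in the sources used here. G401 is a single line, and nothing in the labels says whether the 2 libraries of a group came from separate cultures, so p-values measure only the spread between these libraries, which may be technical. The series holds 20 samples in 10 groups. Only the 4 H3K27ac libraries were used, and the H3K4me3, H3K4me1 and SMARCA4 samples were not analysed here. Peaks were not placed on genes, so neither the cell type nor the induction of SMARCB1 was checked against marker genes.

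D-type cyclins bind and activate CDK4 and CDK6. The active kinases phosphorylate the retinoblastoma protein RB1, which releases E2F transcription factors and lets cells pass from G1 into S phase. CDKN2A, which encodes the inhibitor p16, acts on the same kinases. Cyclin D1 and CDK4/6 have long been studied in rhabdoid tumours because return of SMARCB1 to such cells arrests them in G1.

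Promoter sequence was matched by symbol in a RefSeq table (GRCh38.p14) for CCND3, CDK4 and CDK6, and CCND1 and CCND2 were not matched. The 250 bases before the RefSeq start are shown for the kinases, whose windows had the lowest and the highest SMARCB1 to GFP ratios of covered length among the 5. Capitals mark the GC box GGGCGG and the E-box CACGTG, on either strand. CDK4 (GRCh38.p14, chr12:57752311-57752560, minus strand) and the first CDK6 start (GRCh38.p14, chr7:92836574-92836823, minus strand) read 5′ to 3′ as follows.
CDK4: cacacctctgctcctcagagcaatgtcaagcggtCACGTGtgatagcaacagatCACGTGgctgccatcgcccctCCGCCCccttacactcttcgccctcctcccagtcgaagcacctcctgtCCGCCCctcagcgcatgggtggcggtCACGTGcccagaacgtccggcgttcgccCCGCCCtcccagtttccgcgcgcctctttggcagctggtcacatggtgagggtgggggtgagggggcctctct
CDK6: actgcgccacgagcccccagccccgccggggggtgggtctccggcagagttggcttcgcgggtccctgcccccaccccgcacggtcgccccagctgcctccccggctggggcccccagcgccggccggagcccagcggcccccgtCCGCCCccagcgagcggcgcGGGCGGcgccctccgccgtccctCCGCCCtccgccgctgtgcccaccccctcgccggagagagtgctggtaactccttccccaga
The CDK4 sequence held 3 GC boxes and 3 CACGTG E-boxes, and the CDK6 sequence held 3 GC boxes and 0 E-boxes. The second CDK6 start, not shown, held 0 GC boxes and 0 E-boxes. Among 35116 promoters of that length, 42.6% held GGGCGG and 6.34% held CACGTG. GC content was 65.6% for CDK4, 80.0% for the first CDK6 start and 67.6% for the second, against a median of 58.0% over all promoters. These matches are letters in the reference, and neither the binding of any factor nor the hg19 position of these bases was measured here.

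The lists differed in size before any gene was considered. They held 98251 (GFP 1), 79555 (GFP 2), 145533 (SMARCB1 1) and 135472 (SMARCB1 2) peaks, which covered 88.8, 82.3, 122 and 101 Mb. The SMARCB1 mean was 1.302 times the GFP mean in covered length over the genome. Read depth is not in these files, but the values of the deposited fold enrichment came in steps of 0.354, 0.211, 0.168 and 0.205 in the same order. Such a step is what 1 more fragment adds to a peak, so it is larger where fewer fragments are expected in the background, and the step of GFP 1 was the largest. The part of these differences in the results was not tested. Fold enrichment is the authors' value for a peak over its own background. It is used here to describe peaks within a list and to order gained and lost regions by the smaller of their 2 folds. The folds were not adjusted for the steps.

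The CDK6 window had the largest difference in covered length, with more under peaks in the SMARCB1 libraries, and in 3 of the windows the groups overlapped. Over the 5 windows, 1190 kb in all, peaks covered 67.5 and 64.4 kb with GFP and 92.7 and 69.9 kb with SMARCB1, a ratio of means of 1.232 against 1.302 genome-wide. The SMARCB1 libraries were both above both GFP libraries at CCND2 and CDK6, and the groups overlapped at CCND1, CCND3 and CDK4. Among 5933 tiles of 250 kb with a peak, 53.9% had both SMARCB1 libraries above both GFP libraries and 18.1% had both below, so 2 of 5 higher was not above the background. With 2 libraries against 2, a two-sided exact permutation test cannot give a p below 0.333, so none of these differences could pass a threshold. Adjusted over the 5 windows (Benjamini-Hochberg), the exact permutation p was 0.833 in 4 windows and 1 at CCND1.

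**Figure D1:**
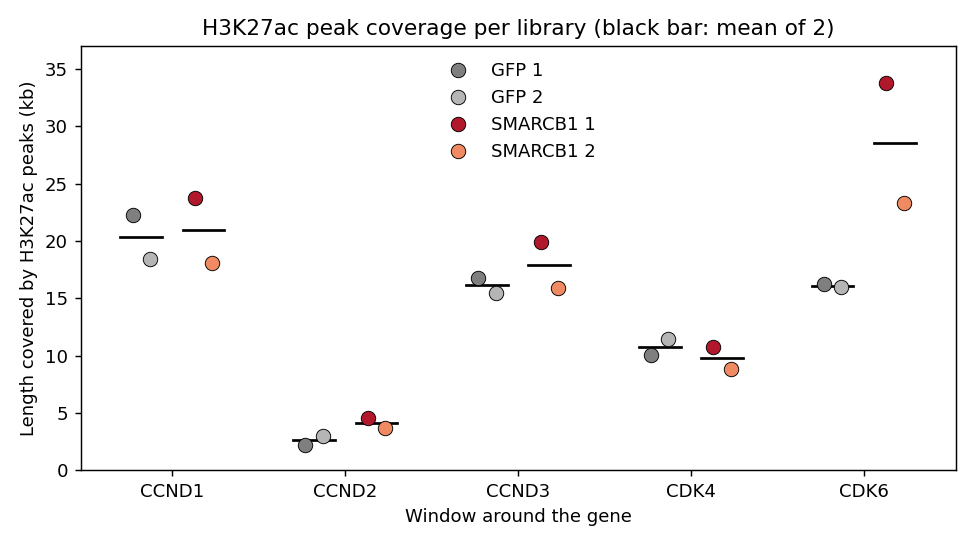
Length covered by H3K27ac peaks (kb) in the 5 windows, with 1 point per library and a black bar at the mean of 2. The SMARCB1 points at CDK6 sit at 33.8 and 23.3 kb, above GFP points at 16.2 and 16.0 kb, while the groups overlap at CCND1, CCND3 and CDK4.

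CCND1 encodes cyclin D1, the D-type cyclin most often amplified or translocated in cancer. Peaks covered 22.3 kb (GFP 1), 18.4 kb (GFP 2), 23.7 kb (SMARCB1 1) and 18.1 kb (SMARCB1 2) of its window. Both groups had 1 library near 18 kb and 1 above 22 kb. The means were 20.3 ± 2.71 kb (SD, n = 2) and 20.9 ± 3.97 kb (SD, n = 2), a difference of 0.574 kb in a two-sided exact permutation test with p = 1. The sign of this small difference did not hold in lists of equal length, where it was -1.35 kb, without GFP 2 (-1.34 kb) or without SMARCB1 1 (-2.24 kb).

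Of 31 regions at CCND1, 6 had a peak in all 4 libraries, 5 were gained (a peak in both SMARCB1 libraries and neither GFP library) and 1 was lost (the opposite). Over all 167933 regions, 17.5% were gained and 3.94% lost, so neither count stood above the background. The widest shared region, chr11:69453909-69464759, held 10048, 8602, 10504 and 9185 bp of peaks in GFP 1, GFP 2, SMARCB1 1 and SMARCB1 2. Its covered length therefore overlapped between the groups. It also held the strongest peak of GFP 1 (fold 29.8, above 99.5% of that list), SMARCB1 1 (14.6, above 98.4%) and SMARCB1 2 (14.1, above 98.9%). In GFP 2 the strongest peak, of fold 16.7, lay just beside it in the region chr11:69448559-69453835.

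That neighbouring region was narrower with SMARCB1. Its peaks covered 4922 and 4902 bp with GFP against 3462 and 3604 bp with SMARCB1. A pair of regions about 200 kb away, at the start of the window, showed the same order. At chr11:69256791-69258207 the covered lengths were 1417 and 1097 bp with GFP against 768 and 822 bp with SMARCB1. At chr11:69258328-69260178 they were 1851 and 1412 bp against 569 and 232 bp. This was the shared region with the lowest SMARCB1 to GFP ratio of all 31 in the 5 windows, at -2.03 on the log2 scale. In each of these regions, both SMARCB1 libraries lay below both GFP libraries.

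The 5 gained regions at CCND1 had folds of 2.58 to 4.87, around the medians of 3.72 and 3.68 over their lists, and most gathered beside those narrowed regions. The gained region with the highest lower fold of the pair, chr11:69251438-69251846, had folds of 3.87 and 3.31 and lay 4944 bp from the nearest GFP peak. The single lost region, chr11:69472049-69472784, had folds of 3.25 and 3.15. The cluster from 69249879 to 69260559, which joins regions by the gap that the headers of the stitched-region tables give, held 4 of the 5 gained regions. Its covered length was 3.48 and 2.51 kb with GFP and 4.53 and 2.65 kb with SMARCB1, so the groups overlapped there. This cluster was cut at the window start, because only regions overlapping the window were joined. The 50 kb before the window held 0.584 and 0.435 kb with GFP and 3.64 and 3.66 kb with SMARCB1. Of 50 kb tiles with a peak, 48.1% had this order.

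**Figure D2:**
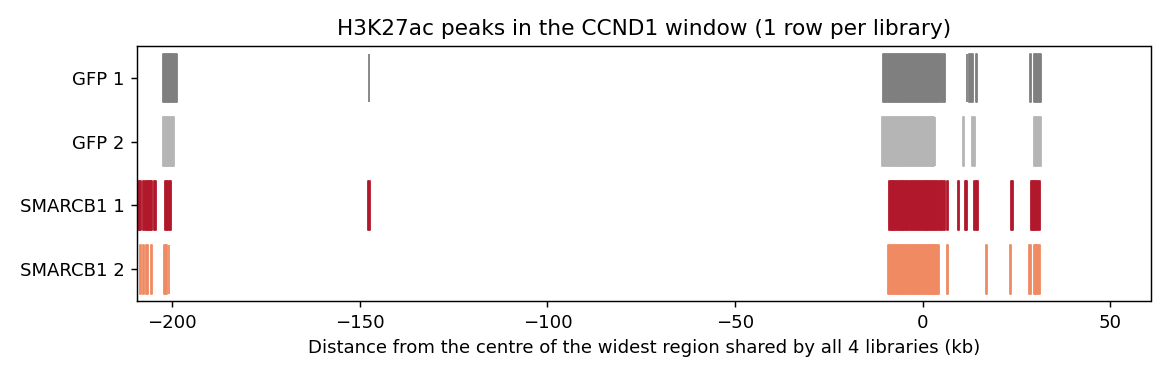
H3K27ac peaks in the CCND1 window, with 1 row per library and distance in kb from the centre of the widest shared region on the x axis. The block around 0, from -10.8 to 31.5 kb, is present in all 4 rows, and a smaller group lies from -209 to -199 kb.

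CCND2 encodes cyclin D2, and its window had the least H3K27ac of the 5. Peaks covered 2.23 and 3.02 kb with GFP and 4.51 and 3.71 kb with SMARCB1, between 0.743% and 1.504% of the window. Both SMARCB1 libraries were above both GFP libraries, with means of 2.63 ± 0.562 kb and 4.11 ± 0.565 kb (SD, n = 2) and an exact permutation p of 0.333. This order ended among peaks with a -log10 q of at least 5, where the libraries held 2.23 and 3.02 kb with GFP and 2.83 and 3.45 kb with SMARCB1, a difference of 0.51 kb against 1.49 kb. All peaks lay within 1 cluster of 24.1 kb near the upper end of the window. In RefSeq (GRCh38.p14) the next protein-coding gene on that side of CCND2 is TIGAR, and it was not determined here which of the genes these peaks overlap. The widest shared region, chr12:4430339-4433069, held 1693 and 2316 bp with GFP against 2509 and 2558 bp with SMARCB1. It held the strongest peak of every library, above 90.3% to 95.7% of its list by fold. The only gained region, chr12:4417601-4418004, had folds of 4.73 and 4.09 and lay 11456 bp from the nearest GFP peak. No region was lost. Among the 20000 strongest peaks of each list the difference had the other sign (-0.50 kb).

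CCND3 encodes cyclin D3, whose window divided into 3 blocks, of which the first and second differed in opposite directions. Peaks covered 16.8, 15.5, 19.9 and 15.9 kb in GFP 1, GFP 2, SMARCB1 1 and SMARCB1 2. The groups overlapped, with means of 16.1 ± 0.899 kb and 17.9 ± 2.83 kb (SD, n = 2) and an exact permutation p of 0.667. In lists of equal length the difference was -1.26 kb, and without SMARCB1 1 it was -0.19 kb. The first block, chr6:41862297-41910593, was covered by 11.8 and 11.7 kb with GFP and 15.4 and 13.9 kb with SMARCB1. The second block, chr6:41998172-42021081, was covered by 4.08 and 3.37 kb with GFP and 2.47 and 1.67 kb with SMARCB1. Within the same window, both SMARCB1 libraries were thus above both GFP libraries in the first block and below them in the second. In the third block, chr6:42054434-42068462, the groups overlapped, at 0.846 and 0.423 kb with GFP and 2.12 and 0.347 kb with SMARCB1. Among 18112 tiles of 50 kb with a peak, 48.1% had both SMARCB1 libraries above both GFP libraries and 19.0% both below. The protein-coding neighbours of CCND3 in RefSeq order are BYSL before it and TAF8 after it, and peaks were not assigned to a gene.

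The widest shared region at CCND3, chr6:41904327-41909574, held 4532 and 3961 bp with GFP against 4990 and 3534 bp with SMARCB1, and the groups overlapped. Next to it, chr6:41909680-41910593 was narrower with SMARCB1, at 914 and 637 bp against 439 and 217 bp. At chr6:41886932-41888858 the order was the opposite, with 1015 and 814 bp against 1667 and 1687 bp. Of 37 regions, 10 were shared by all libraries, 2 were gained and 2 were lost. The gained and the lost each made up 5.41%, against backgrounds of 17.5% gained and 3.94% lost. The leading gained region, chr6:41881867-41882518, had folds of 3.39 and 4.30, and both gained regions lay in the first block. The leading lost region, chr6:42012943-42013228, had folds of 4.25 and 3.80, and both lost regions lay in the second block. Gained and lost regions are part of the covered length of the blocks, so their places are not separate support for the block differences. The strongest peak of GFP 2, SMARCB1 1 and SMARCB1 2 fell in 1 shared region of the second block, chr6:42018036-42020121. There the covered lengths overlapped, at 1431 and 1585 bp with GFP against 1463 and 1668 bp with SMARCB1.

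CDK4 encodes the first of the kinases, and peaks covered a larger share of its window than of any other. This window was 50 kb wide and the others 220 to 350 kb, so the shares depend on the window widths chosen. In kb, the covered length at CDK4 was below that at CCND1, CCND3 and CDK6. Peaks covered 10.1 kb (GFP 1), 11.5 kb (GFP 2), 10.7 kb (SMARCB1 1) and 8.80 kb (SMARCB1 2), between 17.6% and 23.0% of the window. The groups overlapped, with means of 10.8 ± 1.01 kb and 9.76 ± 1.35 kb (SD, n = 2), a difference of -1.01 kb and an exact permutation p of 0.667. Without SMARCB1 2 the difference was -0.05 kb, without GFP 2 -0.30 kb, without SMARCB1 1 -1.97 kb and without GFP 1 -1.72 kb. Of 15 regions, 7 were shared by all libraries, and 0 were gained and 0 lost, against 17.5% and 3.94% over all regions. In lists of equal length and among peaks with a -log10 q of at least 5, both SMARCB1 libraries lay below both GFP libraries. The differences of the means were -1.78 and -1.82 kb, in that order. In both settings the order rested on a small gap, between GFP 1 at 9.722 kb and SMARCB1 1 at 9.648 kb. GFP 2 held 11.482 and 10.519 kb, and SMARCB1 2 was the lowest at 8.003 and 6.946 kb. The genome-wide ratios of covered length in these lists were 1.105 and 1.177. The share of genome tiles with this order was not counted for them, so no background stands beside it.

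Shared regions at CDK4 nonetheless differed in width within a few kilobases. At chr12:58138773-58141439, the widest, peaks covered 916 and 1459 bp with GFP against 2657 and 1592 bp with SMARCB1. At chr12:58146484-58148639 they covered 2156 and 2098 bp with GFP against 783 and 687 bp with SMARCB1. The adjoining chr12:58148684-58149798 showed the same order, at 1100 and 926 bp against 379 and 378 bp. Between the widened and the narrowed regions, chr12:58143998-58146194 held 2184, 2149, 2100 and 2126 bp, a small difference that also placed both SMARCB1 libraries below both GFP libraries. This region held the strongest peak of GFP 2 (fold 15.2) and SMARCB1 2 (13.3), and the widest held that of GFP 1 (22.7) and SMARCB1 1 (15.5). RefSeq order places TSPAN31 before CDK4 and MARCHF9 after it, and which of these genes each region overlaps was not determined.

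**Figure D3:**
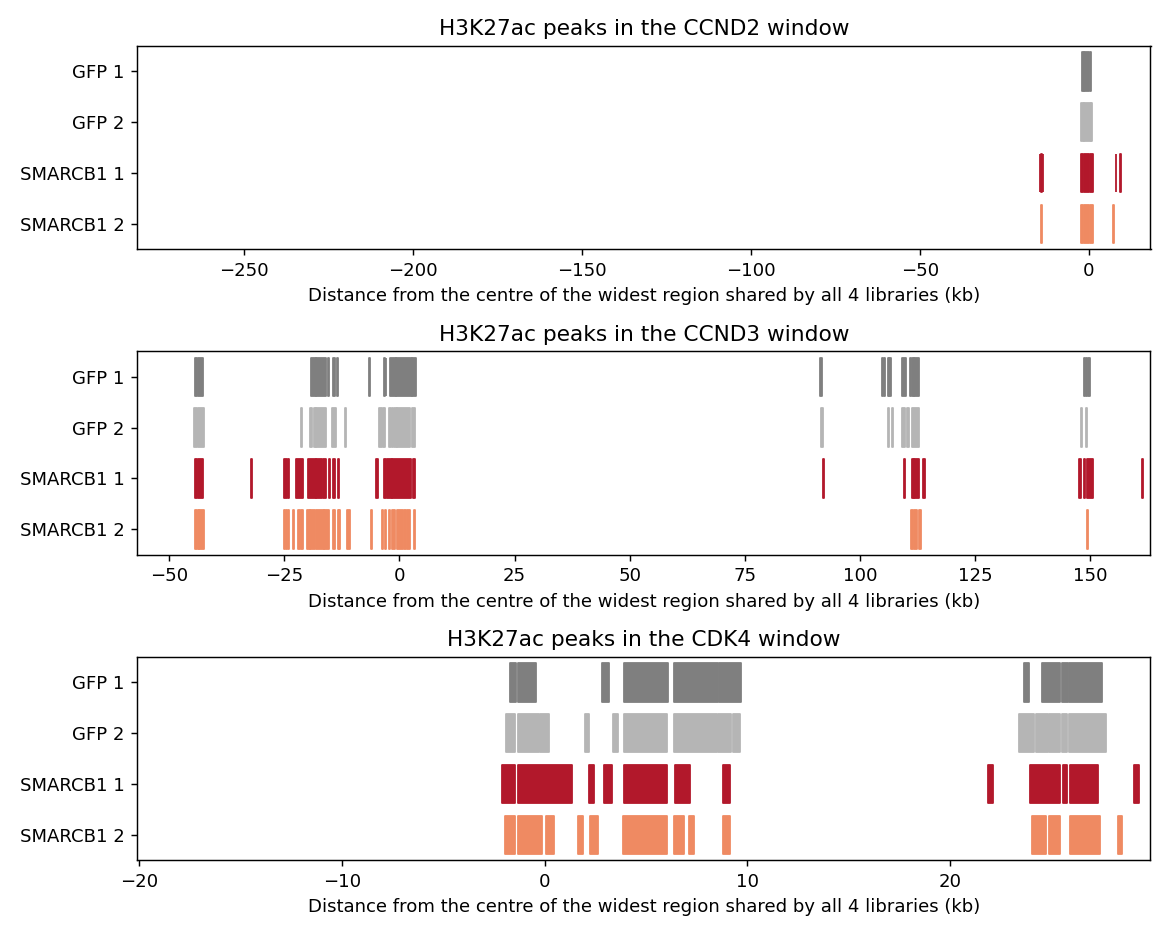
H3K27ac peaks in the CCND2, CCND3 and CDK4 windows, with 1 row per library and distance in kb from the centre of each window's widest shared region on the x axis. CCND2 peaks lie in 1 short cluster, CCND3 has more SMARCB1 coverage from -44.7 to 3.64 kb and less from 91.2 to 114 kb, and CDK4 has shared blocks in all rows.

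CDK6 encodes the kinase most similar to CDK4, and its window held the largest difference of the 5. Peaks covered 16.2 kb (GFP 1), 16.0 kb (GFP 2), 33.8 kb (SMARCB1 1) and 23.3 kb (SMARCB1 2). Both SMARCB1 libraries lay above both GFP libraries, and the SMARCB1 libraries differed from each other by more than the GFP libraries did. The means were 16.1 ± 0.176 kb and 28.6 ± 7.40 kb (SD, n = 2), a ratio of 1.77, with an exact permutation p of 0.333. The difference of 12.46 kb was 7.99 kb in lists of equal length, 7.23 kb without SMARCB1 1 and -1.88 kb among the 20000 strongest peaks of each list. The number of peaks was 21 and 18 with GFP and 51 and 37 with SMARCB1. The quartiles of the difference over genome tiles of 250 kb were -0.19 and 6.64 kb, and the CDK6 window is wider than these tiles.

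As a net value, all of that difference lay in a pair of neighbouring clusters that were almost empty with GFP. They were picked because they differed most of the 10 clusters in the window, so they are described without a test. The first, chr7:92347384-92354776, had 0 and 0 kb of peaks with GFP and 2.55 and 2.28 kb with SMARCB1. The second, chr7:92368903-92396452, had 0.217 and 0 kb with GFP and 13.3 and 7.86 kb with SMARCB1. Together they span 49.1 kb and lie from -116 to -67.1 kb on the map of the CDK6 window. Their joint difference of 12.9 kb was 103% of the difference over the window. Outside them, peaks covered 16.0 and 16.0 kb with GFP and 18.0 and 13.2 kb with SMARCB1, and the groups overlapped. The remaining clusters differed in both directions. The difference was -1.91 kb at chr7:92241039-92251499, where the groups did not overlap, and 0.675 kb at chr7:92321250-92328014, where they did. The pair of clusters was free of GFP peaks and held 12.8 and 7.89 kb of SMARCB1 peaks when lists of equal length were used. Among the 20000 strongest peaks, SMARCB1 1 had 0 kb in this pair and SMARCB1 2 had 1.11 kb, in 1 peak of the leading gained region.

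CDK6 had 12 gained regions of 57, a share of 21.1% that is near the background of 17.5%, so their number does not set the window apart. Of the 12, 11 were in the pair of clusters with the largest differences. Without SMARCB1 2, when a peak in SMARCB1 1 alone suffices, 31 regions counted as gained. The leading gained region, chr7:92380485-92382043, held 1548 and 1391 bp of peaks with folds of 6.41 and 6.34, the highest among the gained regions named in the 5 windows. A single short peak of GFP 1 lay 414 bp away, and GFP 2 had no peak in either cluster.

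**Figure D4:**
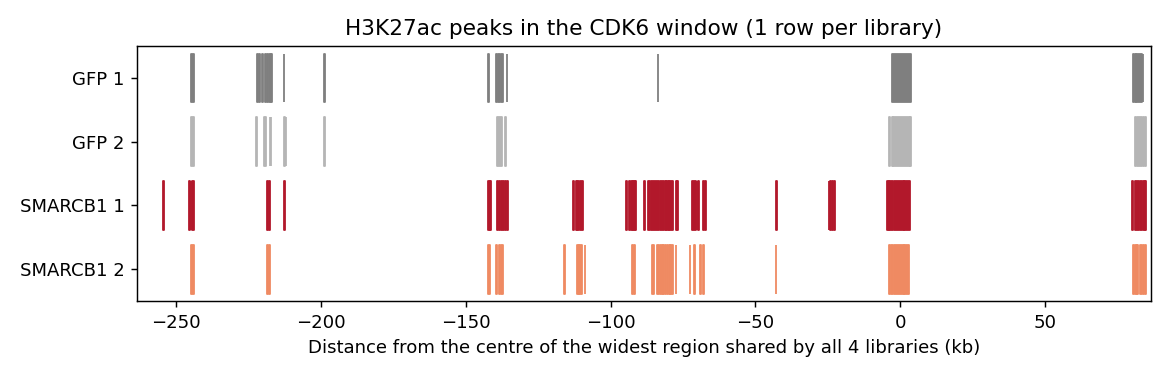
H3K27ac peaks in the CDK6 window, with 1 row per library and distance in kb from the centre of the widest shared region on the x axis. Between -116 and -67.1 kb the SMARCB1 rows hold many peaks and the GFP rows 1 and 0, while the block at 0 is present in all 4 rows.

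The widest shared region at CDK6, chr7:92459762-92467279, was alike in covered length in all libraries, at 6557 and 6725 bp with GFP against 6871 and 6300 bp with SMARCB1. Its highest folds were 21.6 and 11.8 in the GFP lists and 7.997 and 8.181 in the SMARCB1 lists, each on the scale of its own list. Another cluster differed the other way. At chr7:92241039-92251499, peaks covered 2.902 and 2.380 kb with GFP and 0.932 and 0.525 kb with SMARCB1. It held 1 of the 2 lost regions, chr7:92243656-92244557, with folds of 4.58 and 4.57. RefSeq order places FAM133B before CDK6 and SAMD9 after it, and which clusters lie within CDK6 was not determined here.

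The overlap of peaks, as shared bases over bases covered in either library (Jaccard index), was lowest between groups at CDK6. There it was 0.594 within GFP, 0.554 within SMARCB1 and 0.307 to 0.395 between groups. At CCND3 it was 0.575 and 0.536 within groups and 0.427 to 0.494 between them, and at CDK4 0.753 and 0.670 against 0.525 to 0.578. At CCND1 the within-group values were 0.737 and 0.625, and the highest between-group value, 0.625, was below the lower of them only past the third decimal. At CCND2 the between-group range of 0.487 to 0.713 contained the SMARCB1 value of 0.684. Both within-group values thus lay above all between-group values in 4 of 5 windows, CCND1 included, an order that 62.2% of 4886 tiles of 250 kb with a peak in all libraries also had.

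Over all 5 windows, 20 of 148 regions were gained (13.5%) and 5 were lost (3.38%), close to or below the backgrounds of 17.5% and 3.94%. Of the 31 regions shared by all libraries, 13 (41.9%) had both SMARCB1 covered lengths below both GFP values and 5 (16.1%) had both above. Among 27997 shared regions of the genome these shares were 28.9% and 30.3%. The narrower regions numbered 4 of 6 at CCND1, 0 of 2 at CCND2, 2 of 10 at CCND3, 4 of 7 at CDK4 and 3 of 6 at CDK6. The median log2 ratio was -0.04 over the 31 regions and -0.00 over the genome. Once peaks within 1 kb were joined, 3 of 16 shared regions were narrower, against 28.7% of the genome, so the excess was not seen at that scale.

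**Figure D5:**
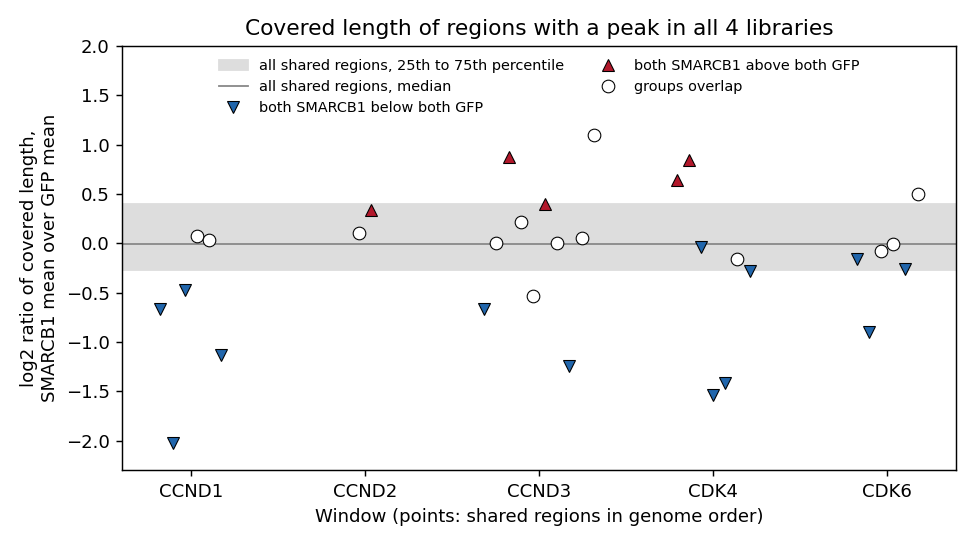
The log2 ratio of covered length, SMARCB1 mean over GFP mean, for the 31 shared regions by window, with the genome's quartiles (-0.27 and 0.39) as a grey band. Downward triangles mark the 13 regions with both SMARCB1 libraries below both GFP libraries, reaching -2.03 at CCND1, and upward triangles the 5 with both above.

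The strongest peaks gave another order of the groups. When each list was limited to its 20000 strongest peaks, the SMARCB1 mean of covered length was lower in all 5 windows, and both SMARCB1 libraries lay below both GFP libraries at CCND1, CCND3, CDK4 and CDK6. CCND1 had the lowest ratio, 0.514, with 17.4 and 15.5 kb in GFP against 9.48 and 7.40 kb in SMARCB1. At CDK4 the values were 9.498 and 8.998 kb against 6.78 and 5.27 kb. The genome-wide ratio for these lists was 0.927. Of 5012 tiles of 250 kb with such a peak, 43.6% had both SMARCB1 libraries below both GFP libraries and 22.6% had both above. With equal numbers of peaks taken from unequal lists, a peak can leave the set because others rank above it, so a lower length here is a lower rank and not a measured loss of signal.

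The authors' deposited tables of stitched regions join neighbouring peaks and do not hold every peak, with 0 stitched regions at CCND2 in either GFP table. In these tables, no region in any window was marked as a super-enhancer in a GFP library. In SMARCB1 1 the marks fell on 2 regions at CCND1, chr11:69233421-69258942 and chr11:69450262-69483416, and on chr7:92368903-92396452, the larger of the CDK6 clusters. The second of the CCND1 regions spans the widest shared region of that window, and whether marked regions include gene starts was not determined. In SMARCB1 2 the only mark was on chr6:41881884-41907749 at CCND3. No stitched region of the 5 windows was marked in both SMARCB1 tables. The SMARCB1 tables marked 5.55% and 5.02% of their regions, against 3.37% and 3.35% in the GFP tables. In the order CCND1, CCND2, CCND3, CDK4 and CDK6, GFP 1 had 3, 0, 4, 0 and 6 stitched regions. GFP 2 had 2, 0, 4, 0 and 5. SMARCB1 1 had 3, 2, 4, 2 and 9, and SMARCB1 2 had 2, 2, 2, 0 and 7. With so few regions, the absence of a mark with GFP was not read as a difference between the groups. The identifiers of the 4 marked regions stood on 149, 149, 94 and 83 regions of their table, in the order given and counting the marked region. Listed regions of a table that joined equal numbers of peaks had equal counts, and both CCND1 marks joined 14 peaks. Whether a mark was set for its region alone or for all regions with its identifier was not determined.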

How the data were processed

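Samples were grouped by the induced gene and antibody in the labels. Peaks were called by the authors on each library against hg19 with MACS2, per the names of the deposited files and peaks; the caller's version, control and filter are not given in the sources used here. BWA 0.7.12-r1039, SAMtools and bedtools are named in the submitters' processing notes. Each deposited peak carries the authors' fold enrichment, a ratio over background, and their -log10 p and q. The stitched-region tables are ROSE output, per the file headers, from which only the deposited super-enhancer mark and region bounds were used. A table was assigned to a library by its name, and 100% of its region bounds were in that library's peak list, against at most 0.952% in another. A further 4 columns of per-sample values matched no sample and were not used.

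Covered length was the base pairs under peaks within a window, counted in Python 3.11.15 with numpy 2.4.6, pandas 2.3.3 and scipy 1.17.1, and tested by exact permutation over libraries. The counting was tested on simulated data. Strength was ranked by -log10 p within a list. In each window the rule for names took the widest shared region, the leading gained region and the leading lost region, ordered by the smaller of the folds in the 2 libraries that have it. Other regions, including narrowed ones and clusters, were chosen after their values were seen. The windows, members and lists were chosen with earlier results of these data known. A comparison with other genes of the G1/S pathway and with genes of like pattern needs an hg19 annotation and was not run. Alternatives were stricter, equal-length and shorter lists, other overlap rules, leaving out each library, and a replicate block.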

Additional observations from a re-analysis of the deposited data

How the results depend on the processing

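The covered-length difference at CDK4 was negative under all 9 alternatives run, but came close to 0 with 1 library left out. Counting only peaks wholly inside the window, or using the replicate block, left it at -1.01 kb, so neither tested the sign. Between same-numbered libraries it was 0.659 kb for replicate 1 and -2.68 kb for replicate 2. Limited to -log10 q of at least 5, the CCND1 difference was -0.82 kb and that at CCND2 was 0.51 kb. In equal-length lists it was -1.35 kb at CCND1 and -1.26 kb at CCND3. Among the 20000 strongest peaks the differences were -7.98 (CCND1), -0.50 (CCND2), -3.45 (CCND3) and -1.88 kb (CDK6). Leaving out 1 library at a time gave -2.24 to 3.38 kb at CCND1, -0.19 to 3.82 kb at CCND3, -1.97 to -0.05 kb at CDK4, 1.09 to 1.89 kb at CCND2 and 7.23 to 17.7 kb at CDK6. Gained regions at CDK6 numbered 7 with the stricter q, 0 among the 20000 strongest and 4 with peaks within 1 kb joined, and 12 to 31 with 1 library left out. Over the 5 windows they numbered 9 with the stricter q, 10 in equal-length lists, 0 among the 20000 strongest, 8 joined, and 22 to 58 with 1 library left out. Lost regions at CDK6 numbered 1 with the stricter q, 0 among the 20000 strongest, 1 joined and 1 with a reciprocal overlap of 50%, and 2 to 6 with 1 library left out. Over the 5 windows they numbered 1 with the stricter q, 8 among the 20000 strongest, 2 joined and 10 with reciprocal overlap, and 5 to 16 with 1 library left out. With 1 library left out a gained or lost region needs 1 library fewer, which by construction raises the counts. The cause of the other changes was not tested.

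With the replicate number as a replicate block, the mean differences between same-numbered libraries were unchanged by construction, at 0.574, 1.49, 1.81, -1.01 and 12.46 kb for CCND1, CCND2, CCND3, CDK4 and CDK6, and no call changed. A sign-flip test of 2 pairs cannot give a p below 0.5. Deviations of same-numbered libraries from their group means correlated at 0.219 over 250 kb tiles, and with 2 pairs the libraries share only a number. Narrower shared regions, an alternative chosen after seeing the data, numbered 9 of 25 with the stricter q, 11 of 28 in equal-length lists and 7 of 13 among the 20000 strongest, against 34.0%, 33.2% and 38.3% of the genome's. In the clusters of largest difference at CDK6, also examined after seeing the data, the difference was 9.94 kb with the stricter q and 0.554 kb among the 20000 strongest. Reads were not used, so the depth that limits weak peaks is unknown.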

Other observations

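The 50 kb on each side of the windows also held H3K27ac in 7 of 10 flanks. The SMARCB1 libraries were both above both GFP libraries in 3 of them and both below in 2, and among 18112 tiles of 50 kb with a peak these shares were 48.1% and 19.0%. Before the CCND1 window, peaks covered 0.584 and 0.435 kb with GFP and 3.64 and 3.66 kb with SMARCB1. Before CCND2 they covered 5.07 and 4.24 kb against 6.68 and 5.99 kb, and before CCND3 0.884 and 1.05 kb against 2.83 and 1.79 kb. The order was the opposite after CCND3, at 10.1 and 6.38 kb against 4.71 and 4.99 kb, and before CDK6, at 2.996 and 2.419 kb against 1.76 and 1.71 kb. In both CDK4 flanks the groups overlapped. After CCND1, CCND2 and CDK6, all 4 lists held 0 kb of peaks.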
